A study of Mus musculus with 3 samples.

Results

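The genes described are the subunits of the proteasome, taken as every symbol in the files that reads Psma, Psmb, Psmc, Psmd or Psme followed by digits only. This rule found 43 of the 32285 genes. They were counted in single cells sorted for CD3 from tumours of MC38, a colon carcinoma line of the mouse, taken on day 15 after 5 days of treatment. The 3 libraries, labelled PBS, mix and homo, hold 1 sample each, and the labels give neither the mouse strain, age or genotype, nor the content of mix and homo, nor how many mice a library pools. By its title the study aims interleukin-2 at LAG3, which restrains T cells, and PBS is the buffer that served as control. With 1 library per treatment, differences between treatments have no replicate check and no test, and all intervals given with them are 95% intervals that cover counting error only.

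The proteasome is the protease that degrades ubiquitin-tagged proteins in the cytosol and nucleus. Its core is a stack of rings of alpha subunits, which gate the chamber, and beta subunits, of which Psmb5, Psmb6 and Psmb7 carry the active sites. Interferon gamma induces Psmb8, Psmb9 and Psmb10, which take the places of Psmb5, Psmb6 and Psmb7 in newly assembled cores and form the immunoproteasome, whose cleavage favours peptides that class I molecules can bind. It also induces Psme1 and Psme2, the subunits of the PA28 cap. The usual cap, the regulatory particle, holds the Psmc ATPases that unfold substrates and the Psmd subunits that bind and remove ubiquitin. Lymphocytes are known to carry mainly immunoproteasomes at rest.

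The 43 members fall into 5 interferon-inducible subunits (Psmb8, Psmb9, Psmb10, Psme1 and Psme2) and 31 constitutive ones. The constitutive subunits are 3 catalytic beta, 4 other beta and 7 alpha subunits, 6 ATPases and 11 non-ATPase subunits of the regulatory particle. The rest are 3 assembly chaperones of the regulatory particle (Psmd5, Psmd9 and Psmd10), the other activators Psme3 and Psme4, and the tissue-restricted Psma8 of testis and Psmb11 of thymus epithelium.

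RefSeq promoters (250 bases upstream of the annotated start, build GRCm38.p6) are shown for 2 exchanging pairs, Psmb8 with Psmb5 and Psmb9 with Psmb6, since the results below set the members of each pair side by side. Each is written 5′ to 3′ on the strand of its gene, Psmb8 at chr17:34197945-34198194 on the plus strand, Psmb9 at chr17:34187331-34187580 on the minus strand, Psmb5 at chr14:54617996-54618245 on the minus strand and Psmb6 at chr11:70525107-70525356 on the plus strand. Capitals mark the letters TTCNNNGAA, the core of the interferon gamma activated site (GAS), and TGACNNNGC, the core bound by NRF factors (ARE).
Psmb8: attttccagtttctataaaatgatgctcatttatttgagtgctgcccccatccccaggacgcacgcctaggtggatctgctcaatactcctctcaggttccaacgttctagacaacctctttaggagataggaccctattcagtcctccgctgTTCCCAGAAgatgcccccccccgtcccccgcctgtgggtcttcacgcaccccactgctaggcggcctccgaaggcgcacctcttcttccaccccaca
Psmb9: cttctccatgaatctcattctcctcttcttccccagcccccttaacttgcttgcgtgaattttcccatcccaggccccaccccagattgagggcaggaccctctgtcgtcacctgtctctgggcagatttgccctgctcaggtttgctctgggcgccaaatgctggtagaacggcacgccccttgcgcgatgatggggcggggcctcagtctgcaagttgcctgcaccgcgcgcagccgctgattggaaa
Psmb5: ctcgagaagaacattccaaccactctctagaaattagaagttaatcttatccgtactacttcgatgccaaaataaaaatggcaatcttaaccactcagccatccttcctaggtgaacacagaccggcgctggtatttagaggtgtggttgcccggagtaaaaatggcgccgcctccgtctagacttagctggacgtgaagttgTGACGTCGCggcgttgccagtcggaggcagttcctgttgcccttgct
Psmb6: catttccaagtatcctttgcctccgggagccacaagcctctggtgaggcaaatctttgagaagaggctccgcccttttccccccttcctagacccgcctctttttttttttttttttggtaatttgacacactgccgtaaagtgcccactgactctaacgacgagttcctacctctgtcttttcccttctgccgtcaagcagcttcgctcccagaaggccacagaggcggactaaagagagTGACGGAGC
The table of promoters held 36 of the 43 members, and all windows were searched on both strands for TTCNNNGAA, TGACNNNGC and the core of the interferon-stimulated response element (ISRE), spelled GAAA, any pair of bases and GAAA again. No overlaps between motifs were weighed. TTCNNNGAA was found in 7.02% of all 32851 promoters, in Psmb8 alone of the 5 inducible subunits (97 to 89 bases before the start) and in 0 of the 25 constitutive subunits that matched. TGACNNNGC was found in 10.2% of all promoters, in 4 of the 25 constitutive subunits (Psmb5, Psmb6, Psmc6 and Psmd12) and in 0 of the 5 inducible ones. The ISRE core was found in 2.98% of all promoters, in Psmb3 and Psmd4 of the constitutive subunits and in 0 of the inducible ones. In the RefSeq order of genes, Psmb8 and Psmb9 lie beside Tap1 and Tap2, the peptide transporter, on chromosome 17, and Psme1 and Psme2 lie together on chromosome 14 with Emc9 between them.

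The libraries held 8461 to 10351 barcodes and 49179708 to 65336646 UMIs (unique molecule counts), of which 7303 to 9214 cells were analysed. Cells needed at least 1 UMI of a CD3 gene and were gated on single UMIs. The CD8 gate (Cd8a or Cd8b1, no Cd4 or Foxp3) held 7117 (PBS), 5587 (mix) and 6517 (homo) cells. The CD4 gate (Cd4, no Foxp3 or CD8 gene) held 317, 309 and 70 cells, and the Foxp3 gate (Foxp3, no CD8 gene) held 842, 807 and 124, in the same order. The 6 T cell markers summed to 4058 to 6067 UMIs per 1e6 UMIs of the gate (CPM) over the gates and libraries, while fibroblast markers stayed at or under 0.884 CPM. Markers of other cell types differed between the libraries. The 9 dendritic cell markers summed to 1781 CPM in the CD4 gate of PBS, 423 in mix and 61.7 in homo, to 661, 878 and 297 in the Foxp3 gate, and to 79.0, 64.0 and 9.25 in the CD8 gate. The 10 macrophage or monocyte markers summed to 53.5, 16.8 and 14.5 CPM in the CD4 gate and to 74.8, 58.9 and 10.5 in the Foxp3 gate. The 4 NK cell markers summed to 159, 41.1 and 3.63 CPM in the CD4 gate and to 34.9, 13.9 and 2.09 in the Foxp3 gate. In the Foxp3 gates of PBS and homo and the CD4 gate of homo, Tyrobp was the only one of the 4 seen. Each of these homo sums was 1 UMI. Pairs of libraries shared 100 to 131 cell barcodes.

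Scaled by all UMIs, proteasome transcripts made up a larger share in the Foxp3 gate than in the CD8 gate of each library. The 43 genes summed to 8793, 8642 and 7769 CPM in the Foxp3 gates of PBS, mix and homo. In the CD4 gates they summed to 7713, 7468 and 6724 CPM. In the CD8 gate the 43 genes summed to 7534 CPM in PBS, 7473 in mix and 6844 in homo. The 5 inducible subunits gave 2869, 2878 and 2479 CPM of this, and the 31 constitutive ones 4456, 4390 and 4174 CPM. In the Foxp3 gate the inducible subunits summed to 3610, 3638 and 3037 CPM and the constitutive ones to 4967, 4793 and 4549 CPM. In the CD4 gate the sums were 3127, 3013 and 2314 CPM and 4363, 4271 and 4192 CPM. The inducible sum and the constitutive sum were each lowest in homo in all 3 gates.

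Psmb8 had the most UMIs of all members in each library of the CD8 gate, with 1053 CPM in PBS, 1056 in mix and 910 in homo. Psmb9 stood at 413, 408 and 427 CPM and Psmb10 at 237, 238 and 188 CPM. Their constitutive counterparts stood at 205, 197 and 173 CPM for Psmb5, 199, 197 and 166 for Psmb6 and 64.0, 64.3 and 62.9 for Psmb7. Each inducible subunit was thus above its counterpart in every library, as UMIs that the 3′ kit takes from 1 end of a transcript and that were not divided by length. Of the PA28 subunits, Psme1 stood at 591, 616 and 545 CPM and Psme2 at 574, 560 and 410 CPM. The other activators were low, Psme3 at 48.1, 48.3 and 41.7 CPM and Psme4 at 30.3, 31.3 and 34.6 CPM. Reads of Psme2 may be lost or assigned to its near-identical copy Psme2b, which held 14.4 to 16.1 CPM here. How far this changes the level of Psme2 was not tested.

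The constitutive subunits ranged in the CD8 gate of PBS from 48.2 CPM for the ATPase Psmc1 to 375 CPM for Psmb3, a beta subunit with no active site, with a median of 125 CPM. Alpha subunits lay between 110 CPM for Psma6 and 291 CPM for Psma2, ATPases between 48.2 and 137 CPM for Psmc3, and non-ATPase subunits between 51.6 CPM for Psmd3 and 168 CPM for Psmd8. The chaperones lay between 28.9 CPM for Psmd5 and 54.1 CPM for Psmd9. The tissue-restricted genes were nearly unseen: Psma8 had 1, 1 and 2 UMIs and Psmb11 had 0, 0 and 1 UMI over the CD8 gates of PBS, mix and homo, and both had 0 in the other gates, which allows up to 0.884 CPM in the deepest of these sums.

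**Figure D1:**
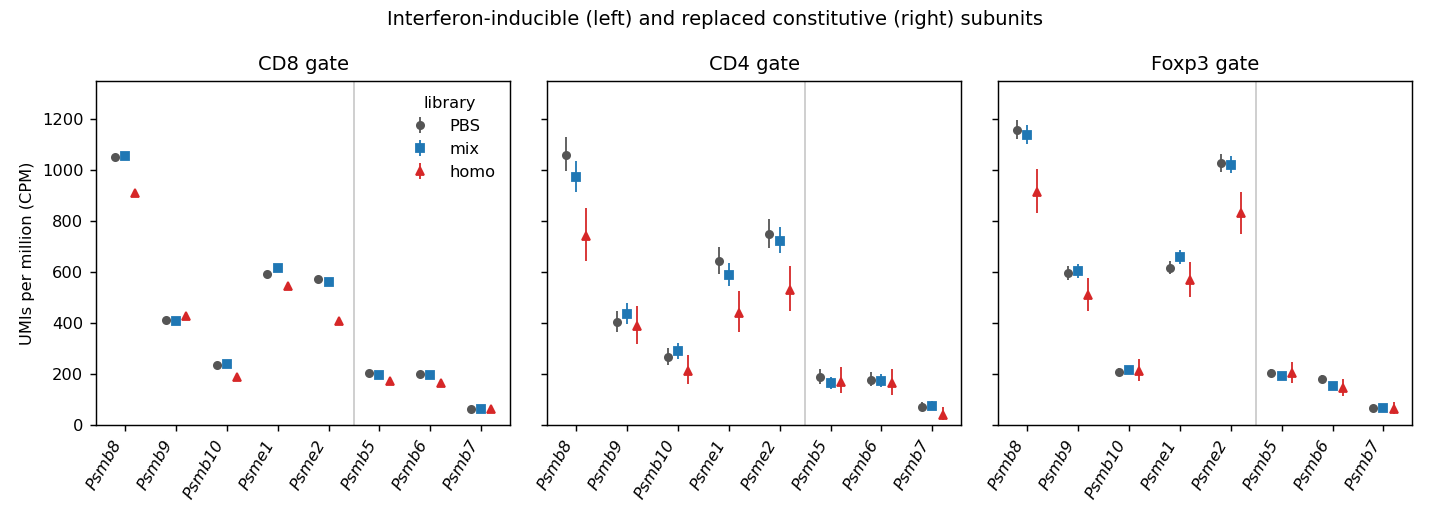
Level of the 5 interferon-inducible subunits and of the 3 constitutive catalytic subunits (CPM) in the CD8, CD4 and Foxp3 gates. Points are the 3 libraries, bars are 95% counting intervals and a line parts inducible from constitutive genes. Psmb8 lies between 743 and 1159 CPM, and Psme2 is above Psme1 in every library of the Foxp3 and CD4 gates but below it in the CD8 gate.

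The share of inducible genes among transcripts of the catalytic subunits was nearly the same in all libraries. Of the UMIs of the 6 catalytic genes, Psmb8, Psmb9 and Psmb10 gave 78.5% in the CD8 gate of PBS, with an exact binomial interval of 78.2 to 78.7. The share was 78.8% in that of mix (78.5 to 79.1) and 79.2% in that of homo (78.9 to 79.4). In the Foxp3 gate the share was 81.3% (80.4 to 82.2), 82.6% (81.7 to 83.4) and 80.0% (77.3 to 82.4). In the CD4 gate it was 79.8% (78.0 to 81.5), 80.5% (78.8 to 82.1) and 78.3% (74.3 to 81.9). The intervals of the 3 libraries overlapped within the CD4 gate, while in the CD8 gate those of PBS and homo did not, at a difference under 1 percentage point.

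The single pairs differed more than this total. In the CD8 gate Psmb9 gave 67.5% of the UMIs of Psmb9 and Psmb6 in PBS, 67.4% in mix and 72.0% in homo. Psmb10 gave 78.7% of the UMIs of Psmb10 and Psmb7 in PBS, 78.7% in mix and 74.9% in homo. Psmb8 gave 83.7%, 84.3% and 84.0% of the UMIs of Psmb8 and Psmb5. In homo the share of Psmb9 was therefore higher and that of Psmb10 lower, beyond counting error, and that of Psmb8 lay between the shares of the other libraries. In the Foxp3 gate Psmb9 gave 76.8%, 79.8% and 78.0% of its pair, above the CD8 gate in each library.

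**Figure D2:**
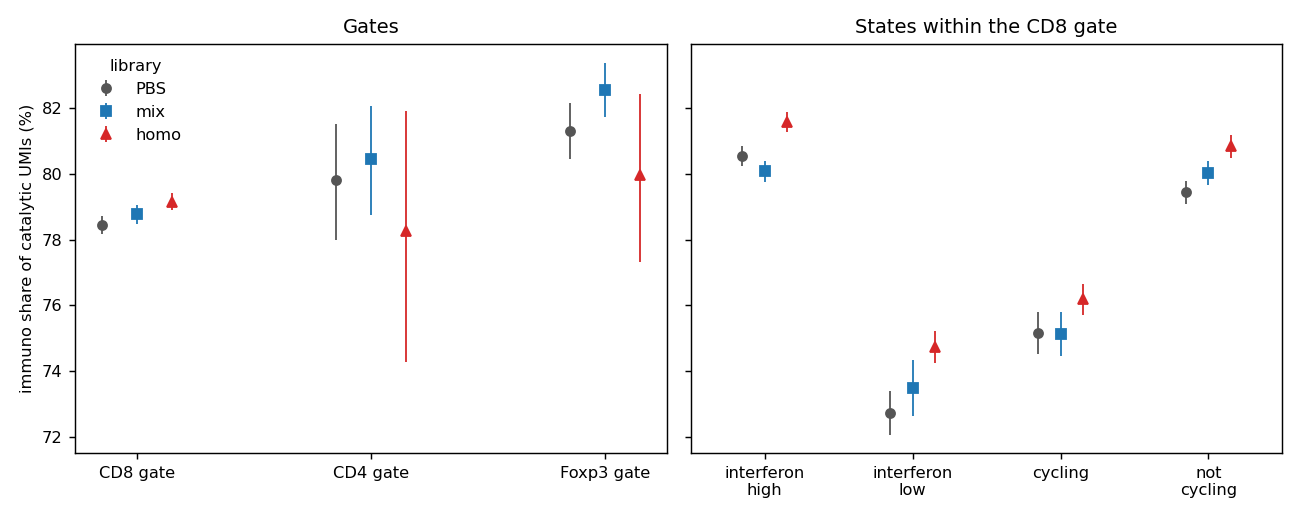
Share of UMIs from the interferon-inducible member (percent), with exact 95% binomial intervals, by gate and library and by state of CD8 gate cells. The share of Psmb8, Psmb9 and Psmb10 among catalytic UMIs is between 78.3 and 82.6% in the gates, and lies at 72.7 to 74.7% in interferon-low against 80.1 to 81.6% in interferon-high CD8 cells; the axis does not start at 0.

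Between treatments, the CD8 gate showed lower inducible subunits in homo than in PBS, with Psme2 the lowest, and near equality of mix and PBS. Psme2 stood at 410 CPM in homo against 574 in PBS, a log2 ratio of -0.49 (-0.51 to -0.46). Psmb10 was lower by a log2 ratio of -0.33 (-0.37 to -0.29), Psmb8 by -0.21 (-0.23 to -0.19) and Psme1 by -0.12 (-0.14 to -0.09). Psmb9 went the other way at 0.05 (0.02 to 0.08), and the sign of this ratio turned when cycling cells were left out and in a mean of per-cell CPM. Of the constitutive catalytic subunits, Psmb6 had a ratio of -0.26 (-0.31 to -0.22), Psmb5 of -0.24 (-0.29 to -0.20) and Psmb7 of -0.02 (-0.10 to 0.05). The homo library also differed in depth and quality. Its CD8 gate cells had median UMIs of 6912, against 5113 in PBS and 5651 in mix. Of its barcodes 4.07% were past the mitochondrial limit and removed, against 0.251% in PBS and 0.307% in mix. The part of library quality in these ratios was not tested.

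In all, 36 members reached 50 CPM in homo or PBS and entered this comparison; Psma8, Psmb11, Psmc1, Psmd5, Psmd10, Psme3 and Psme4 did not. None was 1.5-fold apart (3.02% of all 3017 genes were that much higher and 4.71% that much lower). Past a log2 ratio of 0.32 in size, 5 members were lower, Psme2, Psmd9, Psmc5, Psmb10 and Psmd12, and 0 were higher, against 14.3% of all genes lower and 9.15% higher. The share of members lower is thus near the background. The ratios were below 0 for 27 of the 36, against 58.8% of all genes, with a median of -0.15 against -0.05 for all genes entered. The chaperone Psmd9 had a ratio of -0.46, the ATPase Psmc5 of -0.40 and the lid subunit Psmd12 of -0.33. The highest were Psmb4 and Psmd8 at 0.15 each, Psmb1 at 0.09, Psma4 at 0.08 and Psmd13 at 0.05. The inducible subunits had a median of -0.21 and the constitutive ones of -0.15. Summed over genes, the inducible subunits had a log2 ratio of -0.21 and the constitutive ones of -0.09.

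Mix and PBS were close. Of the 36 members that entered, 0 were past 0.32 in size, where 2% of all genes were that much higher and 1.22% lower. Their median log2 ratio was -0.02 and that of all genes -0.01. Psmd9 was the lowest at -0.19 (-0.29 to -0.10), followed by Psmd8, Psmc4, Psmd13 and Psmd2 at -0.10 to -0.07. The highest were Psmc6 at 0.07, Psmd7, Psmc2 and Psme1 at 0.06 each and Psma4 at 0.04. Psmb8, Psmb9, Psmb10 and Psme2 lay at 0.00, -0.02, 0.01 and -0.04. Between homo and mix, which share the homo library with the first comparison, 3 of 35 members were past 0.32 lower in homo and 0 higher, against 14.3% and 8.52% of all genes. Those 3 were Psme2 at -0.45, Psmc5 at -0.37 and Psmb10 at -0.34.

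**Figure D3:**
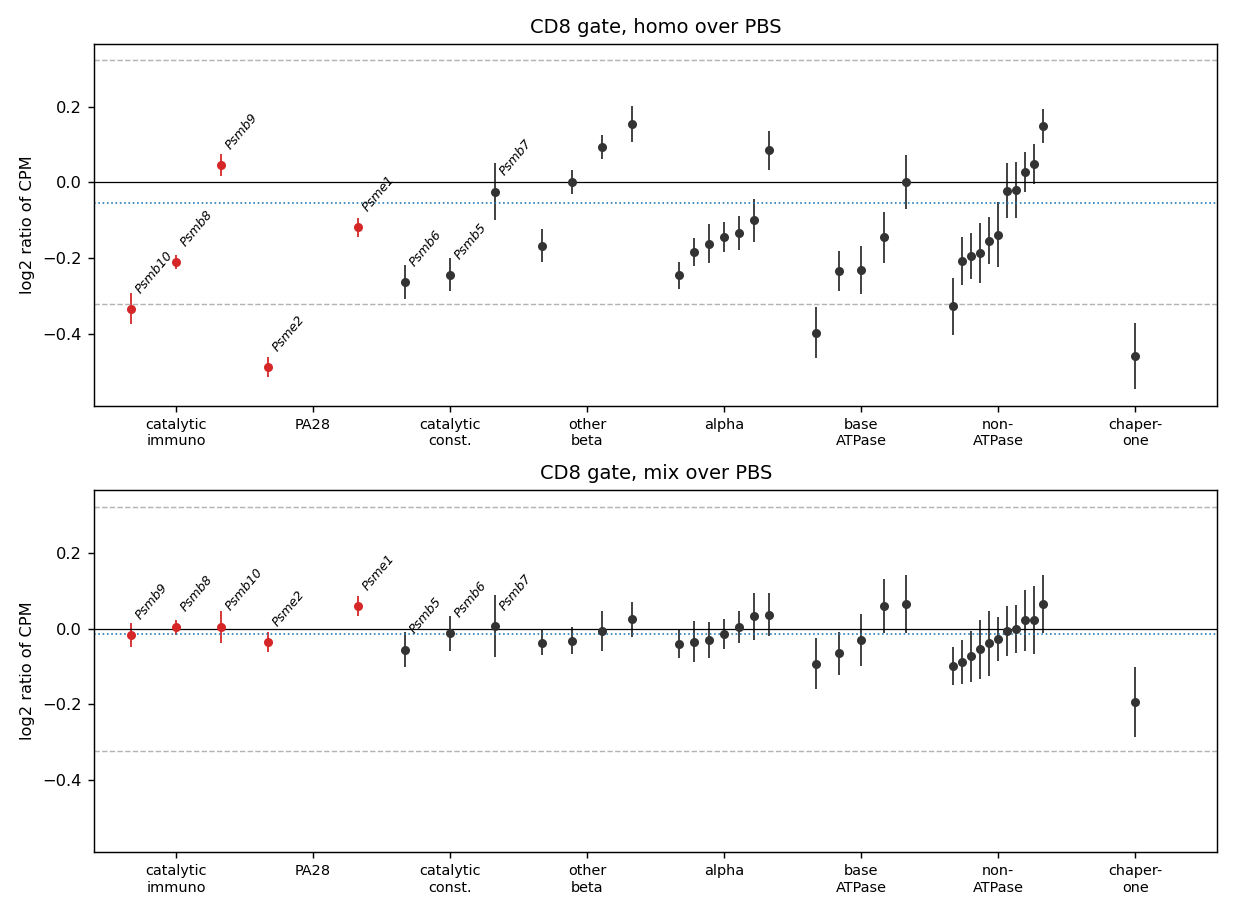
Log2 ratio of CPM in the CD8 gate for each member that entered, homo over PBS above and mix over PBS below, by role, with 95% counting intervals. Red points are the interferon-inducible subunits, dashed lines mark 0.32 in either direction and the dotted blue line is the median of all genes. In homo Psme2 lies at -0.49 and Psmb9 at 0.05, while all members lie between the dashed lines in mix.

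Of the genes that work beside the proteasome, 8 were listed for class I presentation and its induction and 18 for proteasome assembly, substrate delivery and deubiquitination. In the CD8 gate of homo against PBS, all 8 presentation genes entered and 0 were 1.5-fold apart. Irf1, a transcription factor that induces Psmb9 and Tap1, was the only one past 0.32, lower at 92.7 against 122 CPM (log2 ratio -0.39). Only 6 of the 18 assembly genes entered, with Adrm1, the ubiquitin receptor of the regulatory particle, past 0.32 at -0.38.

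In the Foxp3 gate, Psmb8 and Psme2 were lower in homo than in PBS. Psmb8 stood at 1159 CPM in PBS, 1139 in mix and 914 in homo. Psme2 stood at 1027, 1022 and 830 CPM. Their log2 ratios of homo to PBS were -0.34 (-0.49 to -0.20) and -0.31 (-0.46 to -0.16). Psmb9 stood at 596, 604 and 510 CPM, Psmb10 at 209, 214 and 213 and Psme1 at 618, 658 and 569, with intervals of the homo ratio that include 0 for Psmb10 and Psme1. Of 38 members entered, 11 were past 0.32 lower in homo and 0 higher, against 18.3% and 21.2% of all genes, and their median was -0.13 against 0.02. The lowest were the non-ATPase subunits Psmd1 at -0.72 and Psmd11 at -0.59, then Psmd6 at -0.50, the alpha subunit Psma1 at -0.44 and Psmd2 at -0.42. The highest were Psmb1 at 0.28, Psmd12 at 0.26, Psmc1 at 0.23, Psmd7 at 0.19 and Psmc6 at 0.16. These extremes are point values given without intervals and rest on 124 cells in homo, where Psmd6 stood at 41.8 CPM. Their order is therefore uncertain. The summed dendritic and macrophage markers were also lower in this gate of homo than in PBS, and so was Tyrobp, the only NK cell marker seen in both. Without barcodes that held 2 or more UMIs of other cell types, the summed inducible subunits had a log2 ratio of -0.22 (-0.33 to -0.12), and with them of -0.25.

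Between mix and PBS in the Foxp3 gate, 1 of 38 members was past 0.32 higher, Psme3 at 0.35 (0.03 to 0.68), and 0 were lower, against 2.35% and 2.37% of all genes. Psmd1 at -0.30, Psmd11 at -0.28 and Psmb6 at -0.24 had the lowest ratios.

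In the CD4 gate, with 70 cells in homo, Psmb8 stood at 1062 CPM in PBS, 974 in mix and 743 in homo. Psme1 stood at 644, 590 and 439 CPM and Psme2 at 749, 723 and 529. Their log2 ratios of homo to PBS were -0.51 (-0.74 to -0.30), -0.55 (-0.85 to -0.27) and -0.50 (-0.77 to -0.24), while Psmb9 at -0.06 and Psmb10 at -0.32 had intervals that include 0. Of 36 members entered, 12 were past 0.32 lower and 4 higher, against 24.7% and 23.0% of all genes. The lowest ratios, -0.85 for Psmb7 and -0.82 for Psmd6, and the highest, 0.70 for Psmc1 and 0.49 for Psme3, had intervals that include 0 at this depth. Of the presentation genes, Nlrc5, the class I transactivator, lay at -1.07, Tapbp, the tapasin of peptide loading, at -0.73 and the peptide-trimming Erap1 at -0.59. These ratios are given without intervals and rest on the same 70 cells of homo. Erap1 stood at only 39.9 CPM there, against 59.9 in PBS. The summed dendritic, macrophage and NK cell markers were also lower in this gate of homo than in PBS. Without barcodes of other cell types the summed inducible subunits had a log2 ratio of -0.44 and the constitutive ones of -0.03, and with them the ratios were -0.43 and -0.06. Between mix and PBS 1 of 35 members was past 0.32 higher, Psmc6 at 0.48, and 1 lower, Psma1 at -0.33, both with intervals that include 0, against 10.1% and 13.5% of all genes.

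Gates were compared over the 3 libraries as 3 sums of each gate, with edgeR's quasi-likelihood test, Benjamini-Hochberg adjustment over all genes and the library as block. Psme2 was higher in the Foxp3 gate than in the CD8 gate. It stood at 1027, 1022 and 830 CPM in the Foxp3 gates of PBS, mix and homo against 574, 560 and 410 in the CD8 gates, and the values did not overlap. The log2 fold change was 0.71 (standard error 0.07, adjusted p = 1.2e-06, higher in 3 of 3 libraries). It passed the threshold of 0.05 in the 7 alternatives computed per gene, with values of 0.61 to 0.90. Psmb9 rose by 0.27 (adjusted p = 0.0238), which was lost without PBS, without mix and without barcodes of other cell types (adjusted p = 0.262, 0.308 and 0.0939). Psmb6, its constitutive counterpart, fell by 0.42 (adjusted p = 0.00109), and without mix its adjusted p was 0.0911. Psmb8, Psme1, Psmb5, Psmb7, Psme3 and Psme4 were not called.

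In all, 3 of 41 members tested were higher in the Foxp3 gate (Psme2, Psmb9 and the alpha subunit Psma3 at 0.27) and 6 lower (Psmd6 at -0.44, Psmb6, Psmd9 at -0.32, and Psmb10, Psmb3 and Psmb1 at -0.27 each). Of all 11081 genes, 21.0% were higher and 21.5% lower. These directions depend on scaling, since the median of all genes differed by -0.17 between TMM scaling and scaling by all UMIs. With all UMIs, 12 members were higher and 1 lower, 15 members changed sign, and the 4 called either way were Psme2, Psmb9, Psma3 and Psmb6. The count higher was 1 without PBS, 1 without mix and 7 without homo, and the count lower 2, 0 and 8. Of the presentation genes, under TMM scaling, Irf1 was higher at 0.92, Tap1 at 0.67, Tap2 at 0.59 and Tapbp at 0.27, and Erap1 was lower at -0.28. Of the 18 assembly genes 2 were higher under the same scaling, the transcription factor Nfe2l1 at 0.43 and the shuttle Rad23b at 0.41. Among those lower were the assembly chaperone Psmg2 at -0.62 and the deubiquitinases Usp14 at -0.58 and Uchl5 at -0.43.

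Between the CD4 and CD8 gates no member was called higher by edgeR, 1 was at an unadjusted p under 0.05 and 1 by DESeq2. Under TMM scaling 12 of 41 were lower, 11 of them constitutive, against 13.5% of all genes lower and 14.0% higher. With all UMIs, where the median of all genes shifted by 0.17, 0 were lower and 2 higher, so no direction is given for them. Without PBS 1 member was lower, without mix 0 and without homo 13. Under TMM the lowest were Psmd1 at -0.51, Psmd6 at -0.43, Psma4 at -0.40, Psmd13 at -0.38 and Psmd9 at -0.35, and Psme2 had the highest value at 0.20. Under the same scaling Irf1 was higher in the CD4 gate by 1.09 (adjusted p = 5.17e-07 by edgeR), with Tap1 and Tap2 at 0.28 each, and the assembly chaperone Psmg2 was lower at -0.55. These partner genes were not tested with all-UMI scaling or without barcodes of other cell types.

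Within the CD8 gate, cells were split by a list of 12 interferon-induced genes that holds no proteasome gene, after each cell was thinned to 2000 UMIs. Interferon-high cells held 3 or more of these UMIs and interferon-low cells 1 or 0, while cells with 2, which numbered 676, 432 and 780 in PBS, mix and homo, were left out. All 5 inducible subunits were higher in interferon-high cells, and no constitutive subunit was. Psmb10 stood at 286 CPM in PBS, 265 in mix and 227 in homo in interferon-high cells, against 151, 154 and 150 in interferon-low cells, without overlap. Its log2 fold change was 0.81 (standard error 0.07, adjusted p = 3.25e-07 by edgeR). Psmb8 stood at 1176, 1125 and 1011 CPM against 854, 823 and 782, a fold change of 0.47 (standard error 0.06, adjusted p = 1.36e-05). Psmb9 stood at 463, 431 and 467 CPM against 314, 315 and 364, a fold change of 0.50 (adjusted p = 2.27e-05).

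The PA28 subunits rose as well. Psme1 stood at 695, 670 and 632 CPM against 452, 481 and 478, a log2 fold change of 0.55 (adjusted p = 6.53e-06 by edgeR). Psme2 stood at 619, 590 and 445 CPM against 461, 499 and 351, a fold change of 0.38 (adjusted p = 0.000391), and here the homo value of interferon-high cells lay below the PBS and mix values of interferon-low cells. Each of the 5 was higher in 3 of 3 libraries and passed the threshold without any 1 library and by DESeq2. The constitutive counterparts Psmb5, Psmb6 and Psmb7 had fold changes of -0.17, -0.06 and -0.09 and were not called.

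Of the 31 constitutive subunits 0 rose and 1 fell, the non-ATPase subunit Psmd6 at -0.29 (adjusted p = 0.0446), with a median of -0.06 over the 31; 2 of them were higher at an unadjusted p under 0.05, and by DESeq2 0 rose. Of all 11023 genes 5.63% were higher and 3.32% lower. Without PBS or without mix the call of Psmd6 was lost. Psme3 at -0.24 and Psme4 at 0.21 were not called. Of the presentation genes Tapbp rose by 0.81, Tap1 by 0.72, Nlrc5 by 0.67, Irf1 by 0.50, Tap2 by 0.44 and B2m, the light chain of class I, by 0.30. Of the 18 assembly genes 0 were called. The cells of this comparison differed in depth before thinning, with median UMIs of 4990, 5764 and 6957 in interferon-high cells of PBS, mix and homo against 6187, 6172 and 7867 in interferon-low cells.

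Cycling CD8 cells showed the opposite division. They held 2 or more UMIs of 12 cell cycle genes and were compared with cells that held 0. Of the 31 constitutive subunits 22 rose and 0 fell, with a median of 0.27, and of the 5 inducible ones 0 rose and 2 fell. Of all 10872 genes 14.5% were higher and 11.5% lower. Psmb6 stood at 248, 245 and 205 CPM in cycling cells of PBS, mix and homo against 179, 177 and 149, without overlap, a log2 fold change of 0.43 (standard error 0.06, adjusted p = 2.99e-05 by edgeR). Psmb5 stood at 219, 254 and 197 CPM against 186, 174 and 155, a fold change of 0.34 (adjusted p = 0.00119). Psmb7 stood at 71.2, 91.3 and 70.3 CPM against 56.5, 58.3 and 52.6, a fold change of 0.43 (adjusted p = 0.00176). All 3 constitutive catalytic subunits were thus higher in each library. Cells with 1 such UMI, 1162, 948 and 1225 in number, were left out, and before thinning the cycling cells had median UMIs of 7832 to 10094 against 4954 to 6682 in the others.

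The ATPases rose in 5 of 6 genes, with Psmc4 at 0.48, Psmc3 at 0.43 and Psmc2 at 0.40. Alpha subunits rose in 6 of 7, led by Psma1 at 0.35, other beta subunits in 3 of 4 and non-ATPase subunits in 5 of 11, led by Psmd14, the deubiquitinase of the lid, at 0.41. Of the inducible subunits, Psme1 fell by 0.22 (adjusted p = 0.003) and Psmb10 by 0.19 (adjusted p = 0.0307). Psme1 stood at 546, 612 and 498 CPM in cycling cells against 643, 637 and 595. Psmb8 at -0.05, Psmb9 at 0.06 and Psme2 at 0.08 were not called, nor were Psme3 at 0.26, Psme4 at -0.10 and the chaperone Psmd10 at -0.17. The count of members higher was 13 without PBS and 12 by DESeq2, the count lower 0 without PBS and 1 without mix, and without the library block 4 were higher and 0 lower.

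Partner genes divided in the same contrast. Of the 18 assembly genes 0 fell, and Uchl5 rose by 0.68, Psmg2 by 0.49 and Usp14 by 0.34. Of the presentation genes 0 rose, and Irf1 fell by 0.60, Nlrc5 by 0.52, B2m by 0.22 and Tapbp by 0.17.

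**Figure D4:**
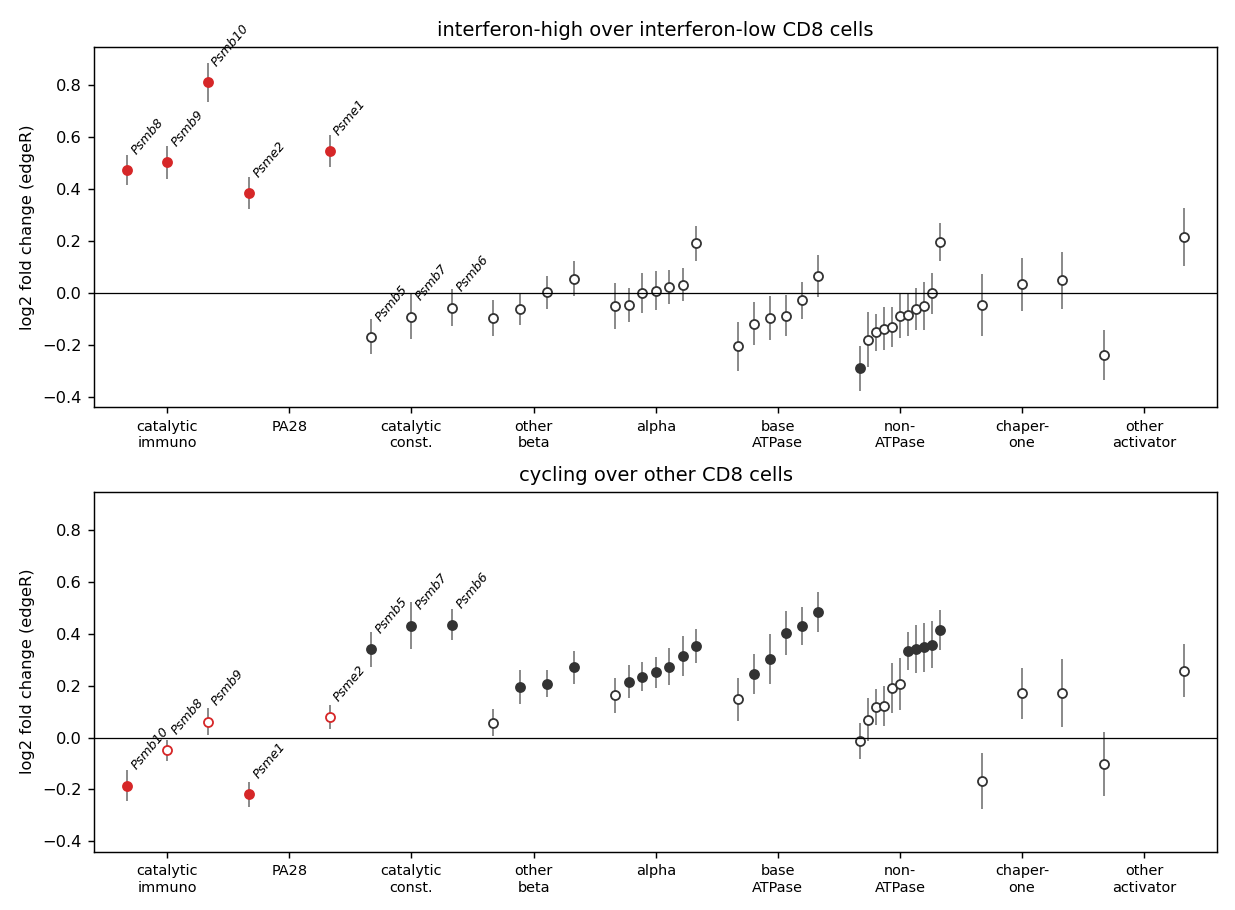
Log2 fold change by edgeR for each member tested, by role, between interferon-high and interferon-low CD8 cells and between cycling and other CD8 cells. Red points are interferon-inducible subunits, bars are standard errors and filled points passed an adjusted p of 0.05. All 5 inducible subunits are filled and above 0 for interferon, between 0.38 and 0.81, and 22 constitutive subunits are filled and above 0 for cycling.

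Late-state CD8 cells, with UMIs of the checkpoint receptor Havcr2 and of granzyme B and none of 4 early genes, were compared with early-state cells, which held the reverse. Late-state cells numbered 1536, 1168 and 1050 in PBS, mix and homo and early-state cells 374, 380 and 539. Most cells, 4805 of 6715, 3715 of 5263 and 4573 of 6162, were in neither. Before thinning, median UMIs were 5854, 6339 and 8211.5 in late-state against 4407.5, 4422.5 and 5951 in early-state cells. By edgeR 0 of 41 members were higher, where 2 were at an unadjusted p under 0.05 and 0 by DESeq2, and 1 was lower, against 10.3% of all 9274 genes in each direction. Psmb10 stood at 200, 202 and 185 CPM in late-state cells of PBS, mix and homo against 278, 264 and 218 (log2 fold change -0.39, adjusted p = 0.039), a call lost by DESeq2, without PBS and without mix. Without homo 4 members were higher and 2 lower. Psme1 at -0.35 had an adjusted p of 0.0561. Of the partners, Irf1 was lower at -1.30 and the assembly chaperone Psmg1 at -1.26.

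The shares of the states differed between the libraries. Of the thinned CD8 gate cells of PBS, mix and homo, 70.0%, 76.6% and 57.4% were interferon-high and 14.1%, 15.0% and 21.9% were cycling. In the full counts of the same cells, the inducible subunits of homo within interferon-high cells had a log2 ratio to PBS of -0.20 (-0.22 to -0.19) and the constitutive ones of -0.12. Within interferon-low cells the inducible subunits had a ratio of -0.09 (-0.12 to -0.07) and the constitutive ones of -0.05. Psme2 lay at -0.46 and -0.42 in the interferon-high and interferon-low cells, Psmb10 at -0.33 and -0.09, and Psmb9 at 0.04 and 0.17. Over the whole gate Psme2 lay at -0.49. Within cycling cells Psme2 lay at -0.43 and within other cells at -0.49. The inducible share of catalytic UMIs was 80.5% in PBS, 80.1% in mix and 81.6% in homo in interferon-high cells and 72.7%, 73.5% and 74.7% in interferon-low cells. In cycling cells it was 75.2%, 75.1% and 76.2%, and in other cells 79.4%, 80.0% and 80.8%.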

How the data were processed

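The authors deposited unnormalized UMI counts of each gene in each barcode. Per the file headers these came from Cell Ranger 7.1.0. Cell Ranger 2.1.1, Seurat 4.1.0 and build mm39 stand in the submitters' processing notes. Whether the libraries came from separate animals is not given in the sources used here. With the library as block, p-values rest on how the difference between gates or states varied over the 3 libraries. The gate tests fitted the CD8, CD4 and Foxp3 sums together with a shared spread. The Foxp3 over CD8 test thus also drew on the CD4 sums, and the CD4 over CD8 test on the Foxp3 sums. Each library is also a treatment, so treatment effects that differ between gates or states are part of that variation.

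Kept barcodes had 500 or more genes, 1000 or more UMIs and a mitochondrial share under 10%. Scrublet (scanpy 1.11.5) called 1, 0 and 0 doublets by its own threshold, so the top scores were removed at 0.8% per 1000 kept barcodes (803, 527 and 485). Gates need single UMIs, so cells whose UMIs were missed stay outside or in a wrong gate. UMIs were summed per gate and library and divided by all UMIs of the gate (CPM). Genes with 50 CPM in either library entered a treatment ratio, called at 1.5-fold or at a log2 ratio of 0.32, which carries an exact conditional binomial interval; shares carry Clopper-Pearson intervals. UMIs correct for amplification, and intervals cover counting error only.

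Gates and states were tested with edgeR 4.0.16 in R 4.3.3 (quasi-likelihood, TMM, filterByExpr, library as block, Benjamini-Hochberg over all genes). DESeq2 1.42.0 was an alternative. Alternatives were computed for members only, so calls of partner genes in any gate or state have no such check. On simulated counts edgeR recovered 72% of 1.5-fold changes for Foxp3 over CD8 gates and 45% for CD4 over CD8 gates. It recovered 40% for cycling, 52% for interferon-high and 32% for late-state cells. False calls were 1.90 to 7.10% of those called. Of 2-fold changes it recovered 98% for Foxp3 over CD8 gates, 88% for CD4 over CD8 gates and for cycling, 91% for interferon-high and 72.4% for late-state cells. A member not called may therefore still differ by 1.5-fold, and at times by 2-fold. The simulation gave all genes the same fixed spread and each change the same size in every library, so recovery in the real counts may differ. State genes were left out of their own test. Other steps ran in Python 3.11.15 with scipy 1.17.1.

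The members, lists and state genes were chosen with earlier results of these data known. Named were the 5 inducible subunits, Psmb5, Psmb6, Psmb7, Psme3 and Psme4, the 5 highest and 5 lowest members of a comparison, and partners past 1.5-fold or the test; other names were chosen after their values were seen. Some partner genes that the rule names are not reported here. Promoter sequences are from RefSeq (GRCm38.p6), and gene order is from RefSeq; no coordinates of mm39 were used.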

Additional observations from a re-analysis of the deposited data

Results flagged for a closer look

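Psmb9 had ratios of opposite sign for homo in 2 of the gates. In the CD8 gate its log2 ratio of homo to PBS was 0.05 and in the Foxp3 gate it was -0.22 (-0.42 to -0.03). The CD8 gate ratio to PBS changed sign in 2 alternatives, to -0.0012 without cycling cells and to -0.0082 as a mean of per-cell CPM. Against mix the ratios were 0.06 in the CD8 gate and -0.24 in the Foxp3 gate (-0.44 to -0.05). The 2 comparisons share the homo library, each gate has 1 library per treatment, and the difference between the gates was not tested.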

How the results depend on the processing

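Of the main summary values under alternatives, 126 stayed the same and 76 moved. Of the remaining values, which mix single genes with further summaries, 399 stayed the same, 103 moved and 2 turned sign. These counts therefore do not give the stability of single genes alone. The 2 that turned sign were Psmb9 of homo over PBS in the CD8 gate. It was -0.0012 without cycling cells and -0.0082 as a mean of per-cell CPM. The causes were not tested.

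In the CD8 gate the summed inducible subunits of homo over PBS moved from -0.21 to -0.23 with cells thinned to 2000 UMIs, -0.17 with median-of-ratios scaling, -0.16 (-0.165) without mitochondrial, ribosomal protein and T cell receptor genes, and -0.26 as a mean of per-cell CPM. The constitutive sum moved from -0.09 to -0.17 without cycling cells and to -0.055, -0.049 and -0.11 under the last 3 settings. For homo over mix those 3 settings gave -0.17, -0.16 (-0.164) and -0.23 for the inducible sum and -0.027, -0.021 and -0.086 for the constitutive sum, which was -0.13 without cycling cells. For mix over PBS the inducible sum was -0.024 with thinned cells and -0.028 per cell, and the constitutive sum -0.010 with thinned cells and -0.035 without cycling cells. The inducible share of catalytic UMIs with thinned cells was 79.9%, 79.5% and 79.8% in the CD8 gates of PBS, mix and homo, 82.6% and 83.3% in the CD4 gates and 83.2% and 83.5% in the Foxp3 gates of PBS and mix. Without cycling cells it was 80.1%, 80.8% and 81.6% in the CD8 gates and 82.6% and 84.1% in the Foxp3 gates of PBS and mix.

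Members called higher in the Foxp3 over the CD8 gate (3) were 1 with no filter on low counts, 12 with all-UMI scaling, 1 with no replicate block and 1 to 7 without 1 library; members lower (6) were 1 with all-UMI scaling, 3 with no replicate block, 10 with thinned cells and 0 to 8 without 1 library. For the CD4 over the CD8 gate, members higher (0) were 1 by DESeq2, 2 with all-UMI scaling, 1 without cycling cells and 0 to 1 without 1 library; members lower (12) were 0 with all-UMI scaling, 4 with no replicate block, 7 without cycling cells, 7 with thinned cells and 0 to 13 without 1 library. For cycling cells, members higher (22) were 12 by DESeq2, 4 with no replicate block and 13 to 22 without 1 library; members lower (2) were 1 by DESeq2, 1 with all-UMI scaling, 0 with no replicate block and 0 to 2 without 1 library. For interferon-high cells the 1 member lower was 0 by DESeq2, with no filter and with no replicate block, 3 with full counts and 0 to 1 without 1 library. For late-state cells members higher (0) were 1 with full counts and 0 to 4 without 1 library; the 1 member lower was 0 by DESeq2, with no filter, with all-UMI scaling, with no replicate block and with full counts, and 0 to 2 without 1 library. All-UMI scaling, the gate tests with thinned cells or without cycling cells or other cell types, and a limit of 6 interferon UMIs were chosen after seeing the data. No paired analysis was possible between treatments because each has 1 library. Depth limits the CD4 and Foxp3 gates of homo, with 70 and 124 cells.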
